A study of Mus musculus with 46 samples.

Results

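The 4 loci described here hold genes that make foreign and endogenous compounds water-soluble and move them out of the hepatocyte: the Ugt1a cluster with Ugt1a1, the Gstm cluster with Gstm1, and the transporter genes Abcc2 and Abcc3. Their regions were all peaks of 42 chromatin immunoprecipitation lists that overlapped 4 fixed windows on the mouse assembly mm9, merged wherever they overlapped by at least 1 bp. The windows were chr1:89930000-90170000 for Ugt1a, chr3:107700000-107980000 for Gstm, chr19:43805000-43970000 for Abcc2 and chr11:94150000-94310000 for Abcc3, 845 kb in all. They held 144 of the 155509 merged regions of the series, with 36 at Ugt1a, 48 at Gstm, 33 at Abcc2 and 27 at Abcc3. Regions are numbered from the low-coordinate end of each window. The rule for the windows used no measured value, but earlier results of these data were known when they were chosen.

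Ugt1a1 encodes the UDP-glucuronosyltransferase that conjugates bilirubin, and the genes of its cluster share their last exons while each has its own first exon and promoter. Gstm1 and its neighbours encode mu-class glutathione S-transferases, which join glutathione to reactive electrophiles. Abcc2 (MRP2) exports conjugates across the canalicular membrane into bile, and Abcc3 (MRP3) exports them across the basolateral membrane towards blood. All are known targets of the xenobiotic nuclear receptors CAR and PXR, which bind DNA as heterodimers with RXR, and C/EBPa and C/EBPb are bZIP factors that maintain and adjust hepatocyte gene expression.

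The series mapped RXRa (labelled RXR), CEBPa and CEBPb in livers of male CD-1 mice given 1 injection of the CAR agonist TCPOBOP at 3 mg/kg, or of vehicle, which was 1% DMSO in corn oil. Livers were taken 3 h or 27 h later, with 3 livers per treatment and factor at 3 h and 4 at 27 h. RXR at 3 h was measured in vehicle livers A1, A3 and A4 and TCPOBOP livers B1, B3 and B4 from mice of 8 weeks, and both CEBP factors at 3 h in vehicle livers A44 to A46 and TCPOBOP livers D44 to D46 from mice of 7 weeks. At 27 h all 3 factors were measured in vehicle livers C1 to C4 and TCPOBOP livers D1 to D4, from mice of 8 weeks. Each library came from the liver of 1 mouse, with all its cell types, so fewer cells with a bound site and less binding per cell cannot be told apart. The antibody to RXRa does not show which receptor RXR was paired with, and no CAR library was analysed here. The deposited lists give positions of peaks and no height, so a peak is either present or absent, and its width in bp, or the percentile of that width within its own list, is the only graded value. The lists held 11899 to 55513 peaks. They carry no expression values, so the tissue label was not checked against marker genes.

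No genome of mm9 was used here, so regions carry positions and no assignment to a gene inside the window. The order of the genes is known from RefSeq (GRCm38): the Ugt1a cluster runs Ugt1a10, Ugt1a9, Ugt1a8, Ugt1a7c, Ugt1a6b, Ugt1a6a, Ugt1a5, Ugt1a2 and Ugt1a1, and the Gstm cluster runs Gstm5, Gstm7, Gstm6, Gstm3, Gstm2, Gstm1 and Gstm4. Abcc2 lies between Cutc and Dnmbp, and Abcc3 between Ankrd40 and Cacna1g. The promoters of Ugt1a1, Gstm1 and Abcc2 are shown because nuclear receptor hexamers occur in them, and that of Abcc3 was not analysed here. They are RefSeq sequences of GRCm38.p6, from 250 bases before to 50 bases after the start, read 5′ to 3′ on the gene's strand. Capitals mark the hexamers AGGTCA or AGTTCA, the core of nuclear receptor sites. The Ugt1a1 promoter is chr1:88211709-88212008 on the plus strand, that of a second listed Gstm1 start is chr3:108017769-108018068 on the minus strand, and that of Abcc2 is chr19:43782058-43782357 on the plus strand. The promoter of the first listed Gstm1 start, chr3:108017924-108018223, holds neither hexamer and is not shown.
Ugt1a1: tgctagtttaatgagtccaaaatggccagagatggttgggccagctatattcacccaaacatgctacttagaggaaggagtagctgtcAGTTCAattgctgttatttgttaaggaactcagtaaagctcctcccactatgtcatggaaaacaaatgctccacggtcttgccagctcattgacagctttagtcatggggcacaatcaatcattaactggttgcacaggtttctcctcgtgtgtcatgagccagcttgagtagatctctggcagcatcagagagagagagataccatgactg
Gstm1: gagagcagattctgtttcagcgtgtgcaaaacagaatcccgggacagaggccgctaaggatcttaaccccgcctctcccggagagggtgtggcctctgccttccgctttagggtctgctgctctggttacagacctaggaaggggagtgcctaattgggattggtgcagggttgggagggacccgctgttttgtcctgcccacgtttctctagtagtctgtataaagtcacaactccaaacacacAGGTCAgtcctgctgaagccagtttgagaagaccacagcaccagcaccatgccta
Abcc2: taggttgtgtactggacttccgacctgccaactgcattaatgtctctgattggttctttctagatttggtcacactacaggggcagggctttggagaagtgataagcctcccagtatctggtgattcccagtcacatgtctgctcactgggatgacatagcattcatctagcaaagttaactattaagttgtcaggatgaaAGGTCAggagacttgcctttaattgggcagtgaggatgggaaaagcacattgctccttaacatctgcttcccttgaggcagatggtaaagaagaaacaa
In these promoters AGTTCA occupied bases 89 to 94 for Ugt1a1, and AGGTCA bases 246 to 251 for Gstm1, across the start, and bases 202 to 207 for Abcc2. Searched on both strands, AGGTCA occurred in 4 of the 21 promoters listed for these families, those of Ugt1a9, Ugt1a7c, Gstm1 and Abcc2, and in 16.3% of all 32851 promoters of this length. AGTTCA occurred in 2 of the 21, those of Ugt1a1 and Gstm5, against 13.99% of all. Direct repeats of these hexamers (AGGTCA or AGTTCA followed by either) spaced by 1, 2, 3, 4 or 5 bases occurred in 0 of the 21, against 0.0822%, 0.0396%, 0.0122%, 0.0274% and 0.0396% of all promoters. The bZIP motif TTGCGCAA occurred in 0 of the 21 and in 0.183% of all, and the looser TTGCNNAA, which contains it, in that of Gstm2 alone and in 10.8% of all. These letters were not placed among the peaks, which lie on another assembly.

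All 3 factors had more peaks per length in the 4 windows than over the whole genome, in each of the 42 lists. RXR lists held a median of 5.80 regions with a peak per 100 kb of window at 3 h and 5.38 at 27 h, against 1.32 and 1.10 peaks per 100 kb for the whole lists. CEBPa lists held 4.26 and 4.14, against 1.12 and 1.10. CEBPb lists held 3.08 at 3 h and 6.15 at 27 h, against 0.756 and 1.76. The windows were thus dense in binding for every factor, before treatment was considered. The higher CEBPb density at 27 h came with longer lists, another sequencing code in the labels and mice of another age, so the times cannot be told apart from these.

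The 144 regions divided almost evenly between the kinds of factor. RXR alone had peaks in 49, CEBP factors alone in 46, and both kinds in 49. These shares of 34.0%, 31.9% and 34.0% compare with 27.0%, 52.3% and 20.7% over the whole series. Regions seen in 1 list only were 35 of the 144 (24.3%, against 35.7% of the series). Gstm held the most regions with both kinds, 23 of its 48, while Ugt1a held 10 of 36, Abcc2 9 of 33 and Abcc3 7 of 27.

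**Figure D1:**
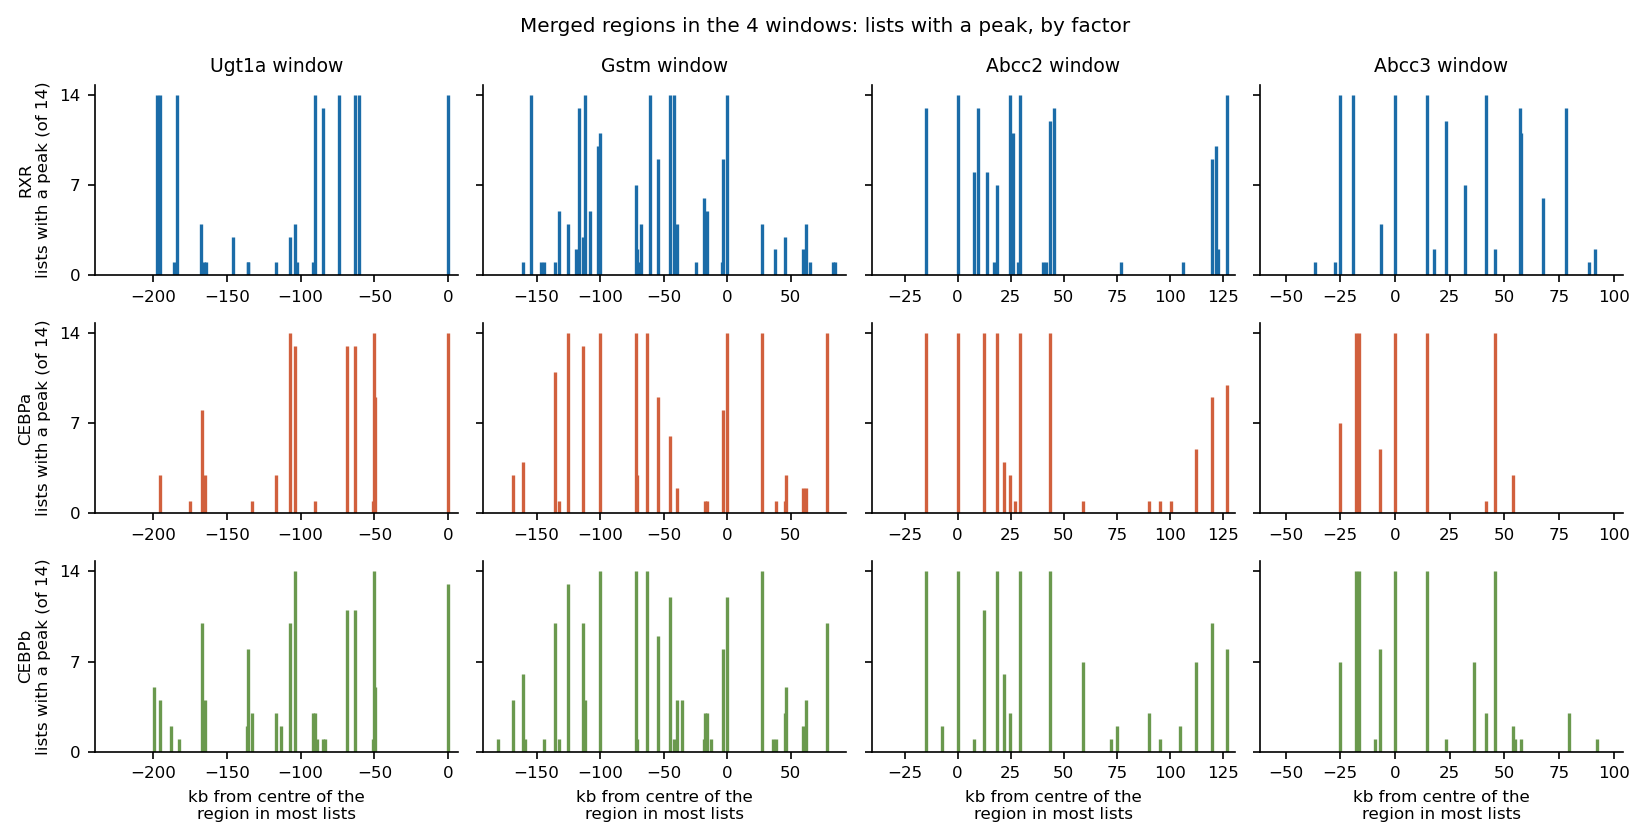
Merged regions along each window (columns), with distance in kb from the centre of the region present in most lists on the x axis and the number of the factor's 14 lists with a peak on the y axis, for RXR, CEBPa and CEBPb (rows). RXR has 8 bars of full height at Ugt1a, where CEBPa has 3 and CEBPb 2, and at Abcc3 each factor has 5.

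A core of regions was bound in every liver of a factor, whatever the treatment and time. RXR had a peak in all 14 lists at 23 regions, 15.97% of the 144 against 7.92% of the series. CEBPa did so at 21 and CEBPb at 16, and both CEBP factors in all 28 lists at 15 (10.4% against 4.77%). The split between kinds of factor differed by locus. Ugt1a had 8 of the constant RXR regions and 1 of the constant CEBP regions, whereas Gstm had 6 and 4, Abcc2 4 and 5, and Abcc3 5 and 5. The 2 counts follow unlike rules, since a constant CEBP region needed both factors in all 28 lists and a constant RXR region 14 lists. Taken singly, CEBPa was constant at 3 Ugt1a regions and CEBPb at 2. The CEBPb lists of 3 h were also short, with 11899 to 22984 peaks, against 22117 to 52727 for RXR at 3 h. No test was made of this split or of its dependence on list length.

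The regions at which all 42 lists had a peak were 4, and all lay in the windows of the transporter genes. They were Abcc2 region 3 (chr19:43842011-43843089), Abcc2 region 15 (chr19:43871628-43872241), Abcc3 region 10 (chr11:94208406-94209099) and Abcc3 region 11 (chr11:94222862-94223959). Such regions made up 2.78% of the 144 and 1.53% of the series. At Abcc3 region 10 the RXR peak was 557 ± 69.2 bp wide (SD, n = 14 livers), the CEBPa peak 434 ± 63.6 bp and the CEBPb peak 449 ± 45.5 bp. These widths lay on average at the 87.3, 89.1 and 90.9 percentiles of their lists. At Abcc2 region 15 the RXR peak was 402 ± 35.6 bp, the CEBPa peak 417 ± 73.8 bp and the CEBPb peak 428 ± 23.03 bp. At both of these regions every peak, in vehicle and TCPOBOP livers alike, was wider than most peaks of its own list.

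Other regions came close to this. Abcc2 region 1 (chr19:43827187-43828435) and Ugt1a region 36 (chr1:90166218-90166759) had a peak in 41 lists. Gstm region 36 (chr3:107888268-107890011) had one in 40, Gstm region 17 (chr3:107788786-107789483) in 39, Ugt1a region 31 (chr1:90103261-90103851) in 38, and Gstm region 18 (chr3:107817163-107817670) in 35. Ugt1a region 22 (chr1:90062502-90063224) had one in 31 and Abcc3 region 17 (chr11:94254189-94254641) in 30, in both cases mainly CEBP lists. Outside that choice, Abcc2 region 18 had a peak in 40 lists and Abcc2 region 9 in 35. Abcc2 region 33 and Gstm regions 25 and 37 had one in 32, and Gstm region 10 in 31. Gstm region 36 contains the one peak of an input control in the 4 windows, chr3:107888684-107888843 in liver A38, so chromatin without immunoprecipitation gave a peak there in 1 of the 4 controls.

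Ranked by mean width percentile within the lists, the widest constant peaks stood at the edge of the Abcc2 window for RXR and in the Gstm window for both CEBP factors. At Abcc2 region 33 (chr19:43968899-43969704) the RXR peak was 658 ± 55.4 bp over 14 livers, from 582 to a median of 652 and up to 781 bp, and its mean percentile was 93.5. At Gstm region 37 (chr3:107916422-107917229) the CEBPa peak was 464 ± 106 bp, with a median of 461 and a range of 337 to 591 bp, and the CEBPb peak 488 ± 59.4 bp, with a median of 507 and a range of 303 to 545 bp. Their mean percentiles were 91.3 and 93.3. In bp alone the CEBP peaks were wider at Abcc2 region 3, with 494 ± 222 bp for CEBPa and 499 ± 224 bp for CEBPb, with larger SDs between livers. RXR had a peak at Gstm region 37 in 4 of its 14 lists.

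**Figure D2:**
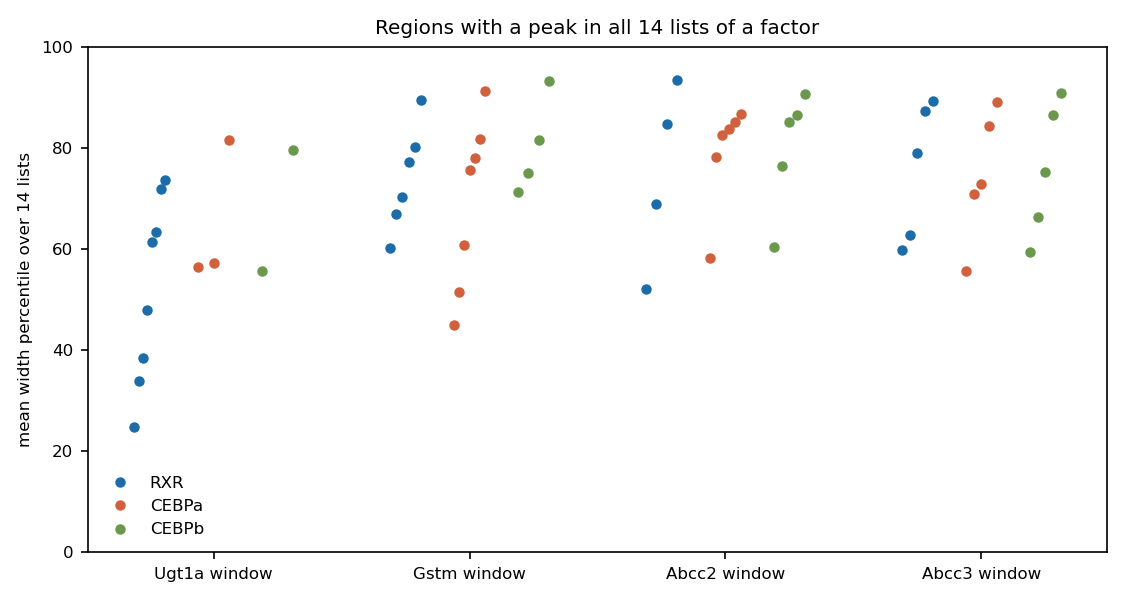
Mean width percentile over 14 lists (y axis) of each region with a peak in all 14 lists of a factor, by window (x axis), with 1 point per region and factor. The RXR points at Ugt1a reach down to 24.9, and the highest RXR point, 93.5, is at Abcc2.

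Constant regions had lower width percentiles at Ugt1a than at the other loci for all 3 factors, as a description. For RXR the median of the mean width percentiles was 54.7 at Ugt1a, 73.8 at Gstm, 76.9 at Abcc2 and 79.1 at Abcc3, against 69.3 over the series. The lowest was Ugt1a region 32 (chr1:90105883-90106188), with a mean percentile of 24.9 and 246 ± 27.5 bp. For CEBPa it was 57.4 at the 3 regions of Ugt1a and 75.6, 83.2 and 72.9 at Gstm, Abcc2 and Abcc3, and for CEBPb 67.6 at the 2 regions of Ugt1a and 78.3, 85.2 and 75.3. For the CEBP factors the 4 windows together had a median of 78.0 each, against 71.7 for CEBPa and 75.7 for CEBPb over the series.

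Some constant regions belonged to one kind of factor only. RXR had a peak in all 14 lists and no CEBP list had one at 7 regions, 30.4% of the constant RXR regions here and 30.8% in the series. They were Ugt1a regions 2, 6, 29 and 32, Gstm regions 5 and 23 and Abcc3 region 4. The reverse, all 28 CEBP lists and no RXR list, held at Ugt1a region 34, Gstm region 22 and Abcc3 regions 5 and 6, or 26.7% of the constant CEBP regions against 18.5%. At 2 loci the kinds were neighbours. Abcc3 region 4 (chr11:94189181-94190064), an RXR peak of 641 ± 164 bp, ended 533 bp before Abcc3 region 5 (chr11:94190598-94191018), and Abcc3 region 6 (chr11:94191891-94192351) followed 1826 bp from the RXR region. Gstm region 22 (chr3:107825499-107825967), a CEBP region, lay 2096 bp from Gstm region 23 (chr3:107828064-107828896), where the RXR peak was 606 ± 107 bp. At Ugt1a the CEBP region 34 (chr1:90115640-90116206), 400 bp wide on average, lay 9451 bp from the nearest such RXR region.

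**Figure D3:**
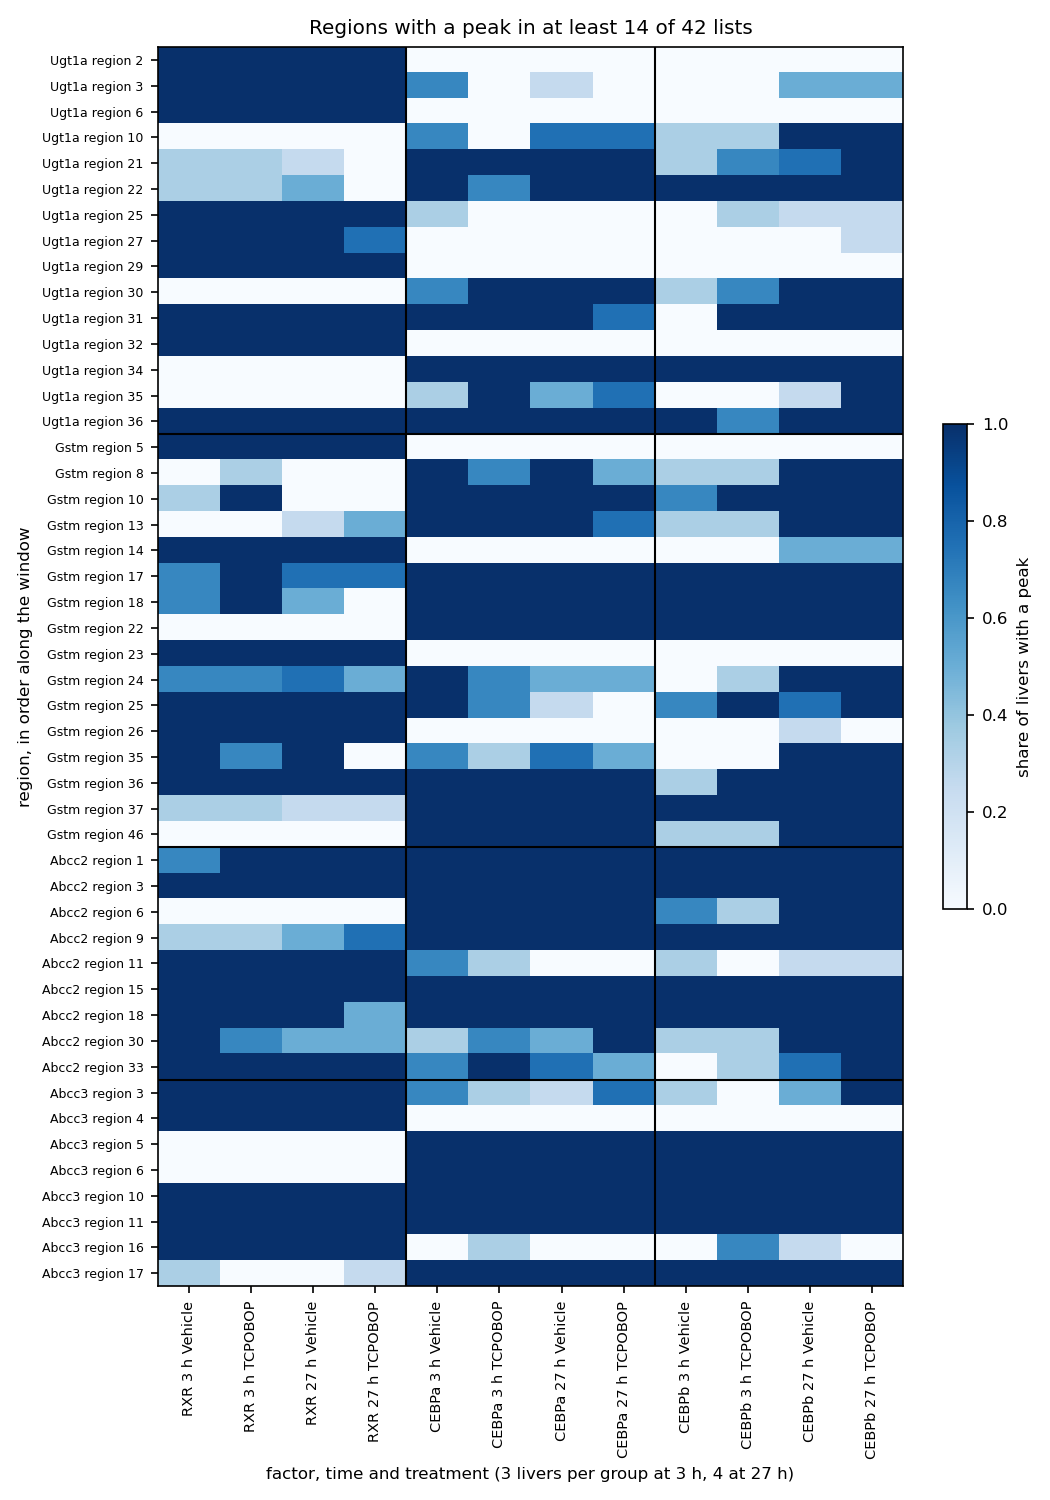
Share of livers with a peak (colour, 0 to 1) at each of the 48 regions with a peak in at least 14 of the 42 lists (rows, in order along each window), by factor, time and treatment (columns). Rows that are full in all 4 RXR columns and empty in the CEBP columns, and the reverse, stand beside the 4 rows that are full throughout.

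Where both kinds of factor shared a region, CEBPa and CEBPb peaks were centred on nearly the same place and RXR was often offset. The lists give no summits, so the midpoint of each peak was used, averaged over the lists of a factor. At the 15 regions constant for both CEBP factors, the midpoints of CEBPa and CEBPb lay a median of 5.46 bp apart, and all 15 within 50 bp. RXR and CEBPa midpoints lay a median of 84.3 bp apart at the 6 regions constant for both, and 2 of the 6 lay within 50 bp. The series as a whole gave 6.29 bp and 77.3 bp for the same measures, so the windows were close to it in both.

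The offset differed between shared regions. At Ugt1a region 36 the CEBPa midpoint lay 49.1 bp to the high-coordinate side of RXR, with SDs of 15.7 and 16.2 bp over 14 livers each. At Abcc2 region 15 it lay 118 bp to the same side, with SDs of 24.6 and 15.7 bp, and the CEBPb midpoint 101 bp. At Ugt1a region 31 it lay 140 bp to the low-coordinate side, with SDs of 24.8 bp over 13 livers and 14.1 bp over 14. These offsets exceed the spread between livers. At Abcc3 region 10 the CEBPa midpoint lay 50.6 bp to the low-coordinate side, against an RXR SD of 38.4 bp, and at Abcc2 region 3 only 0.214 bp away, against SDs of 138 and 89.0 bp. At Gstm region 36 the CEBPa and RXR midpoints lay 821 bp apart, so peaks at separate places were joined there into 1 region.

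Few regions in these windows separated TCPOBOP from vehicle livers. A region was called gained when every TCPOBOP liver and no vehicle liver of a comparison had a peak, and lost in the reverse case. Over 6 comparisons 1 region was gained and 1 was lost, at different loci, times and factors. At 3 h the gained and lost counts were 0 and 0 of 83 regions for RXR, 0 and 0 of 55 for CEBPa, and 1 and 0 of 43 for CEBPb. The series gave 0.292% gained and 0.113% lost for RXR, 0.32% and 0.558% for CEBPa, and 0.6% and 0.0811% for CEBPb. At 27 h the counts were 0 and 1 of 80 for RXR, 0 and 0 of 51 for CEBPa, and 0 and 0 of 89 for CEBPb. The series gave 0.286% and 0.234%, 0.0383% and 0.207%, and 0.362% and 0.0373%. With so few regions per window a share like that of the series gives counts of 0 or 1, so the counts are no result about these loci. Fisher's exact test per region, two-sided, gave an adjusted p of 1 at every region of the 6 comparisons. Its smallest possible unadjusted p was 0.0286 with 4 livers against 4 and 0.1 with 3 against 3.

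The lost region was Gstm region 35 (chr3:107885623-107886478), for RXR at 27 h. Its RXR peak was 213 bp wide in vehicle liver C1, 330 bp in C2, 331 bp in C3 and 297 bp in C4, and no TCPOBOP liver had one (exact Fisher p = 0.0286, adjusted p = 1). At 3 h RXR had a peak in all 3 vehicle livers, of 361 bp in A1, 411 bp in A3 and 333 bp in A4, and in TCPOBOP livers B3 (344 bp) and B4 (327 bp), but not in B1. Over both times RXR was therefore listed in 7 of 7 vehicle livers and 2 of 7 TCPOBOP livers, and the 27 h livers are those that chose the region.

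The CEBP factors were also listed at this region. CEBPb had no peak in any of the 6 livers at 3 h and a peak in all 8 at 27 h, of 218, 286, 263 and 254 bp in C1 to C4 and of 213, 202, 208 and 211 bp in D1 to D4. Every TCPOBOP liver was below every vehicle liver, with 209 ± 4.80 against 255 ± 28.3 bp (SD, n = 4). The width percentiles averaged 18.4 and 42.4, and the exact permutation test, two-sided, gave p = 0.0286, the smallest possible, and an adjusted p of 0.719 over 23539 regions. The TCPOBOP widths and that of C1 are near the narrowest listed, since the narrowest peak of a list was 178 to 226 bp. CEBPa was listed in vehicle livers C2, C3 and C4 and TCPOBOP livers D2 and D3 at 27 h, and in A44, A45 and D45 at 3 h. The CEBPb lists held 11899 to 22984 peaks at 3 h and 39275 to 55513 at 27 h. Sequencing code and age of the mice also differed, so the times cannot be told apart from these.

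RXR and the CEBP factors occupied different stretches of Gstm region 35. RXR midpoints averaged position 107885919 with an SD of 49.6 bp over 9 livers, and CEBPb midpoints 107886280 with an SD of 15.9 bp over 8. In the 4 vehicle livers of 27 h that had both, RXR and CEBPb peaks overlapped in 0, and RXR and CEBPa overlapped in 1 of 3, by 7 bp. Overlapping peaks, within and between livers, joined the stretches into 1 region, and most of the lost RXR peak lay beside the CEBP peak. RXR stayed listed in all 14 livers at the next region, Gstm region 36, but its midpoints there had an SD of 351.5 bp. That region joins peaks at separate places and contains the one input peak of the windows.

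The gained region was Ugt1a region 31 (chr1:90103261-90103851), for CEBPb at 3 h. The CEBPb peak was 319 bp wide in TCPOBOP liver D44, 352 bp in D45 and 356 bp in D46, and vehicle livers A44, A45 and A46 had none (exact Fisher p = 0.1, the smallest possible, adjusted p = 1). The region was already occupied in vehicle livers by the other factors: RXR had a peak in all 14 livers, and CEBPa in all but D4 at 27 h. At 27 h CEBPb was listed in all 8 livers, at 303, 254, 273 and 363 bp in C1 to C4 and 305, 342, 400 and 370 bp in D1 to D4, and these groups overlapped. In the 8 livers of 27 h the RXR and CEBPb peaks overlapped each time, by 120 to 225 bp. The 3 h vehicle lists of CEBPb held 17512, 11899 and 22746 peaks and the TCPOBOP lists 22984, 22444 and 16939. When only the 11899 widest peaks of each list were kept, the TCPOBOP peaks remained and the region was still called gained. Shortening only removes peaks, so it cannot show whether the vehicle lists missed a peak there.

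**Figure D4:**
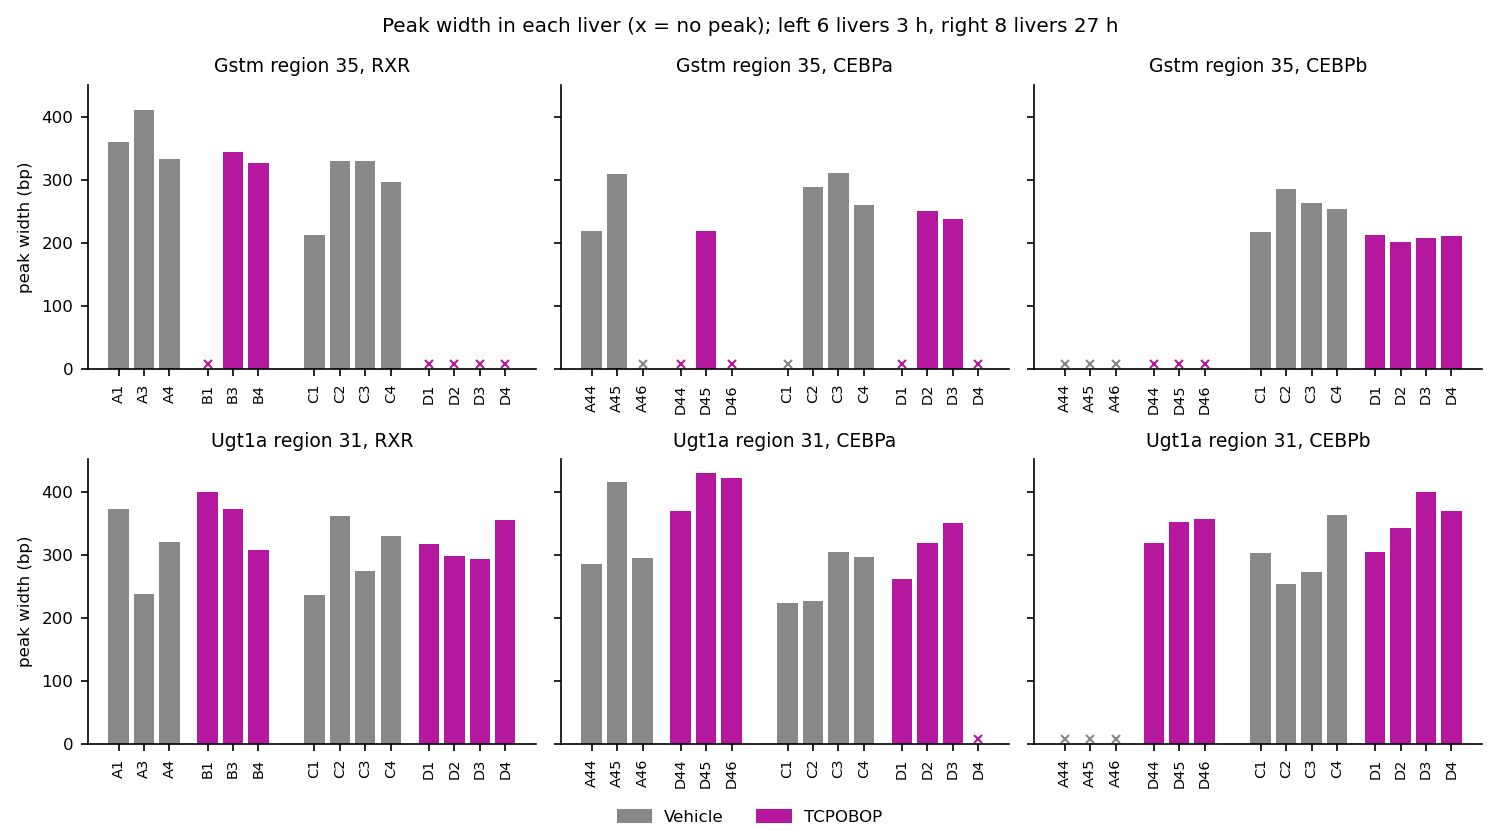
Width in bp (y axis, bars) of the peak of RXR, CEBPa and CEBPb (columns) in each liver (x axis) at Gstm region 35 and Ugt1a region 31 (rows), with a cross where no peak was listed. RXR at Gstm region 35 has bars in C1 to C4 and crosses in D1 to D4, and CEBPb at Ugt1a region 31 has crosses in A44 to A46 and bars of 319 to 356 bp in D44 to D46.

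At 27 h 7 further regions differed by at least 3 livers without meeting the call, each with an exact Fisher p of 0.143. With the lost region included, a peak in at least 3 more TCPOBOP livers was found at 1 of 80 regions for RXR, 0 of 51 for CEBPa and 4 of 89 for CEBPb, against 1.4%, 0.4% and 2.52% of the regions of the series. A peak in at least 3 more vehicle livers was found at 2, 1 and 0 of these regions, against 1.89%, 2.14% and 0.496%. The CEBPb share was 4.49%, and its difference from that of the series was not tested. RXR was listed in D1, D2 and D3 but no vehicle liver at Gstm region 15 (chr3:107780638-107781131), at 238, 494 and 310 bp. It was listed in C1, C2 and C4 but no TCPOBOP liver at Gstm region 30 (chr3:107870454-107870834), at 226, 364 and 189 bp. The order of the groups was thus opposite at these places of the Gstm window. CEBPa was listed in C2, C3 and C4 and no TCPOBOP liver at Abcc2 region 29 (chr19:43954628-43955041), whereas at 3 h it was listed there in 2 TCPOBOP livers and no vehicle liver. The order of the groups there was opposite at the 2 times.

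CEBPb had the other 4 of these regions, all with more TCPOBOP livers and 3 of them at Ugt1a. Ugt1a region 1 (chr1:89967029-89967410) had a CEBPb peak in all 4 TCPOBOP livers and in C4. Ugt1a region 35 (chr1:90116417-90116734) had one in all 4 TCPOBOP livers and in C3, at 223, 235, 234, 188 and 211 bp. These widths are near the narrowest listed, since the narrowest peak of a list was 178 to 226 bp. Ugt1a region 19 (chr1:90049413-90049942) had one in D1, D2 and D4 only, and so did Abcc2 region 24 (chr19:43932498-43932941), at 402, 407 and 199 bp. The direction is that of the whole CEBPb comparison. For any excess of livers, 39.99% of the regions of the series had a peak in more TCPOBOP livers and 22.7% in more vehicle livers, against 29 and 17 of the 89 regions here (32.6% and 19.1%).

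The number of regions with a peak per liver did not differ by treatment past a p of 0.05 in any of 24 tests, 1 for each locus, factor and time, and at 3 h the exact test could not go below 0.1. The largest contrast was CEBPb at 27 h at Ugt1a, where TCPOBOP livers D1 to D4 had 14, 15, 13 and 15 regions and vehicle livers C1 to C4 had 10, 12, 10 and 13. The groups touched at 13, with means of 14.3 ± 0.957 and 11.3 ± 1.5 (SD, n = 4), and the exact permutation test, two-sided, gave p = 0.0571 and an adjusted p of 1 over 24 tests. Without C4 the exact permutation p was 0.0286, and for counts as a share of each list it was 0.171. CEBPb at 3 h had 6 ± 1 regions at Ugt1a after TCPOBOP and 4 ± 1 in vehicle livers (n = 3, exact permutation p = 0.2). No other of the 24 tests had a lower p than that of CEBPb at 27 h, and no adjusted p could fall below 0.0571 in this design.

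At Abcc2 RXR at 27 h had 12.3 ± 2.50 regions after TCPOBOP and 11.0 ± 2.45 in vehicle livers (n = 4, exact permutation p = 0.571), and the difference of 1.25 ran from 0.333 without D1 to 2.33 without D3. Per 10000 peaks of the list these became 4.56, 4.13, 3.98 and 4.47 in D1 to D4 and 3.44, 3.81, 3.23 and 3.87 in C1 to C4, which no longer overlap. On that scale the difference was 0.698 per 10000 peaks, with an exact permutation p of 0.0286. That p is the smallest possible with 4 livers per group, was the lowest of all tests on that scale and was not adjusted. When only the widest peaks of longer lists were kept, the difference stayed at 1.25 regions, with an exact permutation p of 0.171. The Abcc2 contrast thus depends on how list length is taken into account. At 3 h the RXR counts were spread by vehicle liver A1, whose list was the longest at 52727 peaks: it had 28 Gstm regions, where A3 had 10, A4 had 15 and the TCPOBOP livers had 15, 16 and 15. Without A1 the RXR difference at Gstm turned from -2.33 to 2.83 regions.

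**Figure D5:**
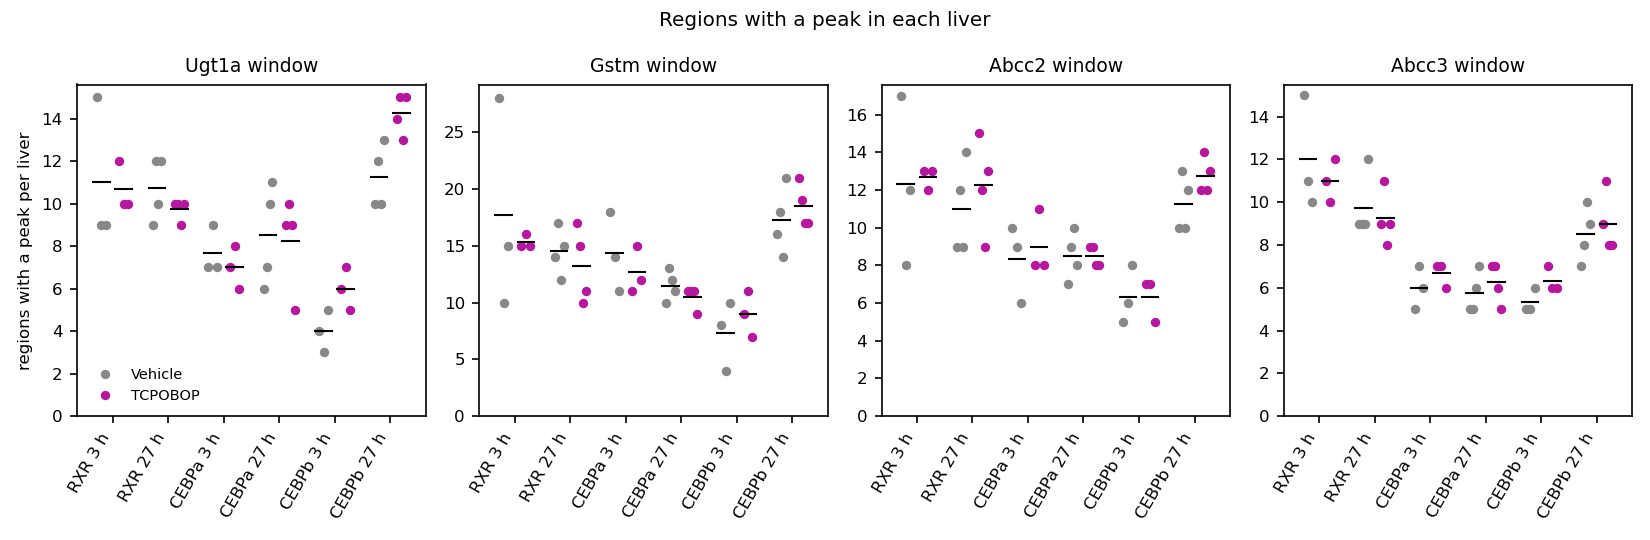
Regions with a peak in each liver (points, y axis) by factor and time (x axis) in each window, for vehicle and TCPOBOP livers, with black lines at group means. The groups overlap or touch in every comparison. CEBPb groups only touch at Ugt1a at 27 h, with 10 to 13 regions in vehicle and 13 to 15 in TCPOBOP livers. They also only touch at 3 h, with 3 to 5 and 5 to 7 at Ugt1a and 5 to 6 and 6 to 7 at Abcc3.

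The treatment difference was also compared between times. The difference at 27 h minus that at 3 h was tested for each factor and locus by exact permutation of times within each treatment, 12 tests in all. The lowest p was 0.685, for CEBPb at Abcc2, where the difference was 1.5 regions at 27 h and 0 at 3 h, and every adjusted p was 1. All 3 factors were measured in different animals at the 2 times. For the CEBP factors the sequencing codes in the labels and the age of the mice differed as well.

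Peak widths at constant regions were the last comparison. At 27 h regions with a peak in all 8 livers numbered 24 for RXR, 23 for CEBPa and 29 for CEBPb. Regions whose width percentiles did not overlap between treatments were 0 wider and 0 narrower for RXR, against 1.7% and 2.51% of such regions in the series. For CEBPa they were again 0 and 0, against 0.775% and 2.45%. For CEBPb 1 was wider and 1 narrower, against 3.08% and 0.896%. The median difference, TCPOBOP minus vehicle in percentile points, was 2.78 over the RXR regions (-1.03 in the series), -4.88 over those of CEBPa (-2.18) and 0.341 over those of CEBPb (1.77). The TCPOBOP mean was higher at 13 of 24 regions for RXR, 7 of 23 for CEBPa and 15 of 29 for CEBPb, against 44.3%, 37.7% and 61.5% of such regions in the series. No region passed adjustment over the series in the exact permutation test, the lowest adjusted p being 0.678, 0.868 and 0.719 for the 3 factors.

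The narrower CEBPb region was Gstm region 35, described above, and the wider one Gstm region 8 (chr3:107753129-107753760). There CEBPb measured 407, 442, 413 and 442 bp in C1 to C4 and 493, 551, 550 and 451 bp in D1 to D4, or 426 ± 18.6 and 511 ± 48.5 bp (SD, n = 4). Every TCPOBOP liver was above every vehicle liver, with percentiles of 95.4 and 92.2 (exact permutation p = 0.0286, adjusted p = 0.719). CEBPb was listed there in 1 vehicle and 1 TCPOBOP liver at 3 h, and RXR in 1 of its 14 lists. Both CEBPb width differences thus lay in the Gstm window, in opposite directions, and neither passed adjustment.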

How the data were processed

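Peaks of RXRa, CEBPa, CEBPb and 4 inputs came from individual livers. Reads were aligned with Bowtie2 2.3.2 and peaks called with MACS2 on mm9, per the submitters' processing notes. The sources used here name no MACS2 version or settings. Deposited was 1 list per liver, in which the only values are start and end, so depth is unknown and replicates were not pooled. List length stands in for it, and absence of a peak does not show that there was no weaker signal. Starts were raised by 1. Both treatments of a comparison carry the same sequencing code in the labels, while CEBP libraries of 3 h and 27 h carry different ones.

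Peaks of 42 lists were merged at 1 bp. The liver was the replicate. Peaks per window and widths were compared by exact permutation, presence by Fisher's exact test, with Benjamini-Hochberg adjustment over the 24 window tests or over all regions of the comparison in the series. Regions named are those gained or lost, those differing by at least 3 livers at 27 h, those of non-overlapping width percentiles, the 3 per window in most lists and the widest constant region per factor; other regions were named, and midpoints compared, after values were seen. Windows, members and lists were chosen with earlier results of these data known. The statistical functions were tested on simulated calls and widths, not on simulated lists. At most 0.0354% of peaks were identical in any of the 861 pairs of immunoprecipitated lists, so none of these looks like a copy. Alternatives were shorter lists, share of list, a 100 bp overlap, regions merged per comparison, lists without input peaks, width in bp, each liver left out and a replicate block. Promoters are from RefSeq GRCm38.p6, and positions were not converted. Software was pandas 2.3.3, scipy 1.17.1, numpy 2.4.6 and matplotlib 3.10.9 under Python 3.11.15.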

Additional observations from a re-analysis of the deposited data

Results flagged for a closer look

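Among 24 groups of 4 livers, 3 were flagged for a liver apart from the others in the number of regions with a peak. The rule flags about 1 in 20 groups by chance for continuous values. These are small counts, and in each flagged group the other livers were tied, so that rate does not apply here. RXR at 27 h at Ugt1a had 9 regions in TCPOBOP liver D3, where the other livers had 10 each, so the gap is 1 region. RXR at 27 h at Abcc3 had 12 regions in vehicle liver C4, where the others had 9 each, and C4 had the longest RXR list of that time, 36148 peaks. CEBPa at 27 h at Gstm had 9 regions in TCPOBOP liver D4, where the others had 11 each, and D4 had the shortest CEBPa list of that time, 20396 peaks. Per 10000 peaks of its list C4 had 3.32 Abcc3 regions, below the 3.44 of C1, and D4 had 4.41 Gstm regions, above the other livers of its group.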

How the results depend on the processing

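Gained and lost counts kept their size under a 100 bp overlap, regions merged per comparison and lists without input peaks; the lost count for RXR at 27 h became 2 with shortened lists, by Gstm region 16 beside region 35. As a share of the list, differences per 10000 peaks turned sign for RXR at 3 h at Abcc2 (-0.0372) and at 27 h at Abcc3 (0.0777), CEBPa at 27 h at Ugt1a (0.374) and Gstm (0.348), CEBPb at 3 h at Abcc3 (-0.145) and CEBPb at 27 h at Gstm (-0.225), Abcc2 (-0.0124) and Abcc3 (-0.170), and RXR at 27 h at Abcc2 reached 0.698 (exact permutation p = 0.0286). When only the widest peaks of longer lists were kept, differences in regions turned sign for RXR at 3 h at Abcc2 (-1) and at 27 h at Ugt1a (1), CEBPa at 27 h at Ugt1a (0.25) and CEBPb at 27 h at Gstm (-0.5) and Abcc3 (-0.5). The cause was not tested. Livers were not treated as paired by number, since correlations of same-numbered livers were low, at -0.0173 to 0.0985. Those of other-numbered livers were -0.0780 to 0.0375, and these values do not settle whether the numbers pair the samples. With a replicate block the 24 tests of regions per liver gave the same calls. The smallest possible exact permutation p was then 0.125 at 27 h and 0.25 at 3 h. Constant regions whose width moved one way in every same-numbered pair at 27 h were 2 narrower of 24 for RXR and 1 wider of 23 for CEBPa. For CEBPb they were 5 wider and 4 narrower of 29. The share of the series that meets this looser rule is not given here, so these counts are no result about these loci. Leaving out each liver gave differences at 3 h for RXR of -1.33 to 1.67 at Ugt1a, -6.17 to 2.83 at Gstm and -2 to 0.5 at Abcc3, each turned by A1, and of -1.83 to 2.67 at Abcc2, turned by A3. They were -3.33 to 0.167 for CEBPa at 3 h at Gstm (turned by A44), -0.5 to 1.5 at Abcc2 (A46 and D45), -1.08 to 0.833 for CEBPa at 27 h at Ugt1a (C3, C4 and D4), -1.08 to 0.25 for RXR at 27 h at Abcc3 (C4), and for CEBPb at 27 h 2.58 to 3.58 at Ugt1a (exact permutation p = 0.0286 without C4, 0.0571 or 0.0857 otherwise) and -0.167 to 1 at Abcc3 (D2). Counts of gained regions became 0 to 2 for RXR at 3 h (without A1), 0 to 1 for RXR at 27 h (D4) and CEBPa at 3 h (A45, D44 or D46), 1 to 2 for CEBPb at 3 h (A44 or D45) and 0 to 2 for CEBPb at 27 h (C3, C4 or D3); those of lost regions became 1 to 2 for RXR at 27 h (C3), 0 to 1 for CEBPa at 3 h (each vehicle liver) and 0 to 1 for CEBPa at 27 h (C1). Wider regions were 0 to 2 for RXR (C2, C3, C4, D2 or D3), 0 to 2 for CEBPa (D4) and 1 to 3 for CEBPb (C1, C2, C3 or D3), and narrower ones 0 to 1 for RXR (D3) and CEBPa (C4 or D2) and 1 to 2 for CEBPb (C2 or C3). Fewer livers make these calls easier to meet by construction.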

Other observations

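At Abcc2 region 3, bound in all 42 lists, CEBPa peaks ran from 454 to 858 bp in the 6 livers at 3 h and from 279 to 375 bp in the 8 livers at 27 h, with no overlap in bp, while CEBPb peaks ran from 313 to 398 bp at 3 h and from 357 to 899 bp at 27 h. As percentiles within the lists the CEBPa times overlap, with 88.5 in D46 at 3 h and 90.8 in D3 at 27 h, and the median peak of a CEBPa list was 305 to 346 bp at 3 h and 261 to 277 bp at 27 h. The times also differ in sequencing code and age of the mice and cannot be told apart from these. At Gstm region 36, CEBPb at 27 h measured 333, 393, 239 and 275 bp in vehicle livers C1 to C4 and 374, 368, 646 and 592 bp in TCPOBOP livers D1 to D4, and the groups overlapped.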
